A study of Saccharomyces cerevisiae with 21 samples.

Results

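The 7 genes described here lie directly upstream of a ribosomal protein gene, and they were selected on these same libraries because their nascent transcription rose when Rap1, Sth1 or both were depleted. They are FYV12 (YOR183W), RXT3 (YDL076C), AAC3 (YBR085W), YOR292C and ROX3 (YBL093C), which are each transcribed away from a ribosomal protein gene (head to head), and STF1 (YDL130W-A) and FMP23 (YBR047W), which lie upstream on the same strand (tandem). Their partners are, in the same order, RPS30B, RPL31A, RPL19A, RPS10A, RPL32, RPP1B and RPS11B. The 7 neighbours are among 7126 features counted, 67 head-to-head neighbours and 56 tandem upstream neighbours of the 137 cytosolic ribosomal protein genes. All 7 passed the filter on low counts, FYV12 only through the groups in which it was high.

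The study sequenced RNA bound to RNA polymerase II (nascent RNA-seq) from Saccharomyces cerevisiae in 7 conditions with 3 biological replicates each. All strains were BY4741 derivatives (MATa, his3D1, leu2D0, met15D0, ura3D0) whose Rpb3, a subunit of the polymerase, carried a 3xFLAG tag (RPB3-3xFLAG::NATMX). The wild type (WT) was left untreated. The STH1-AID strain carried STH1-3V5-IAA7::KanMX6, the RAP1-AID strain carried RAP1-3V5-IAA7::KANMX6, and the RAP1-AID/STH1-AID strain carried both, each with the auxin receptor pGPD1-osTIR at LEU2. Each degron strain was given 500 µM indole-3-acetic acid (IAA) for 2 h, or DMSO as the control. Since WT had neither osTIR nor DMSO, a difference between a DMSO control and WT cannot be told apart from these 2 features.

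Rap1 is a general regulatory factor that binds upstream of most ribosomal protein genes and activates them. Sth1 is the ATPase of RSC, an essential chromatin remodeller that moves nucleosomes away from promoters. Transcription can start in both directions from a nucleosome-depleted promoter, so a gene head to head with a strong promoter shares its regulatory DNA with that promoter, whereas a tandem neighbour ends upstream of it.

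The gaps between neighbour and partner ranged from 78 to 1059 bases. In the RefSeq annotation of R64, which starts protein-coding genes at the start codon, 78 bases separated FYV12 (chrXV:678872-679261, plus strand) from RPS30B, 515 separated YOR292C (chrXV:865653-866582, minus strand) from RPS10A, 673 separated RXT3 (chrIV:320668-321552, minus strand) from RPL31A, 721 separated AAC3 (chrII:415983-416906, plus strand) from RPL19A, and 1059 separated ROX3 (chrII:44256-44918, minus strand) from RPL32. The tandem gaps were 474 bases from STF1 (chrIV:229171-229431, plus strand) to RPP1B and 470 bases from FMP23 (chrII:331833-332360, plus strand) to RPS11B. Stretches with a match to a Rap1 form, at least 1 for each pair that has any, are printed below on the strand of the ribosomal protein gene, 5′ to 3′, because they hold the letters that the depleted factor is known to bind. Capitals mark the matches, to ACCCNNACA (the Rap1 core) or to ANCCNNACA, a looser form that was chosen after the first search had left pairs without a match.
RPS10A and YOR292C (chrXV:866738-866786, plus strand): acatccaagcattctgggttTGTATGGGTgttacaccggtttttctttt
RPL32 and ROX3 (chrII:45152-45218, plus strand): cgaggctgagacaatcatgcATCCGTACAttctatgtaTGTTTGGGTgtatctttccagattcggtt
RPP1B and STF1 (chrIV:229612-229684, plus strand): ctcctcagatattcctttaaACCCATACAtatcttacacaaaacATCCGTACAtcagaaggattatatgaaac
RPS11B and FMP23 (chrII:332507-332571, plus strand): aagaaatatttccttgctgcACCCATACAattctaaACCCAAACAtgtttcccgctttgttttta
RPL19A and AAC3 (chrII:415649-415697, minus strand): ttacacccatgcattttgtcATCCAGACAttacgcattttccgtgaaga
RPS30B and FYV12 (chrXV:678992-679040, minus strand): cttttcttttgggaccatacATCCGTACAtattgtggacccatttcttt

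Further matches to the looser form, not printed here, lay 529 bases before RPL19A in the AAC3 gap and 905 and 568 bases before RPL32 in the ROX3 gap. A core match lay in 4 of the 7 gaps, and the same 9 letters ACCCATACA occurred in the STF1, FMP23 and, on the other strand, YOR292C gaps. At FYV12 the match was not in the gap: it started at base 141 of the FYV12 reading frame, 218 bases before RPS30B. The whole 78-base gap of that pair, shown because it holds no match to either form, reads as follows on the RPS30B strand.
RPS30B to FYV12 gap (chrXV:678794-678871, minus strand): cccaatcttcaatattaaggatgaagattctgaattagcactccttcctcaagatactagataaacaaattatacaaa

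No match to either Rap1 form was found between RXT3 and RPL31A, which says only that these letters are not in that stretch. Over the 500 bases before the start codon, searched on both strands, the core occurred in 5.45% of 6019 protein-coding genes, in 39.4% of ribosomal protein genes, in 20.9% of head-to-head neighbours and in 7.14% of tandem upstream neighbours. It occurred in 2 of the 7 neighbours described here (YOR292C and ROX3) and in 3 of their 7 partners, and the looser form, which contains the core, occurred in 4 and 5 of them, against 18.2% of all genes, 53.7% of head-to-head neighbours and 69.3% of ribosomal protein genes. The looser form was therefore not particular to these loci. The core of another general regulatory factor, Reb1 (TTACCCG), occurred in 0 of the 7 neighbours and 0 of the 7 partners, against 10.1% of all genes. A run of 7 A, a sequence to which RSC has been linked, occurred in 5 of the 7 neighbours and 4 of the 7 partners, against 64.5% of all genes.

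**Figure D1:**
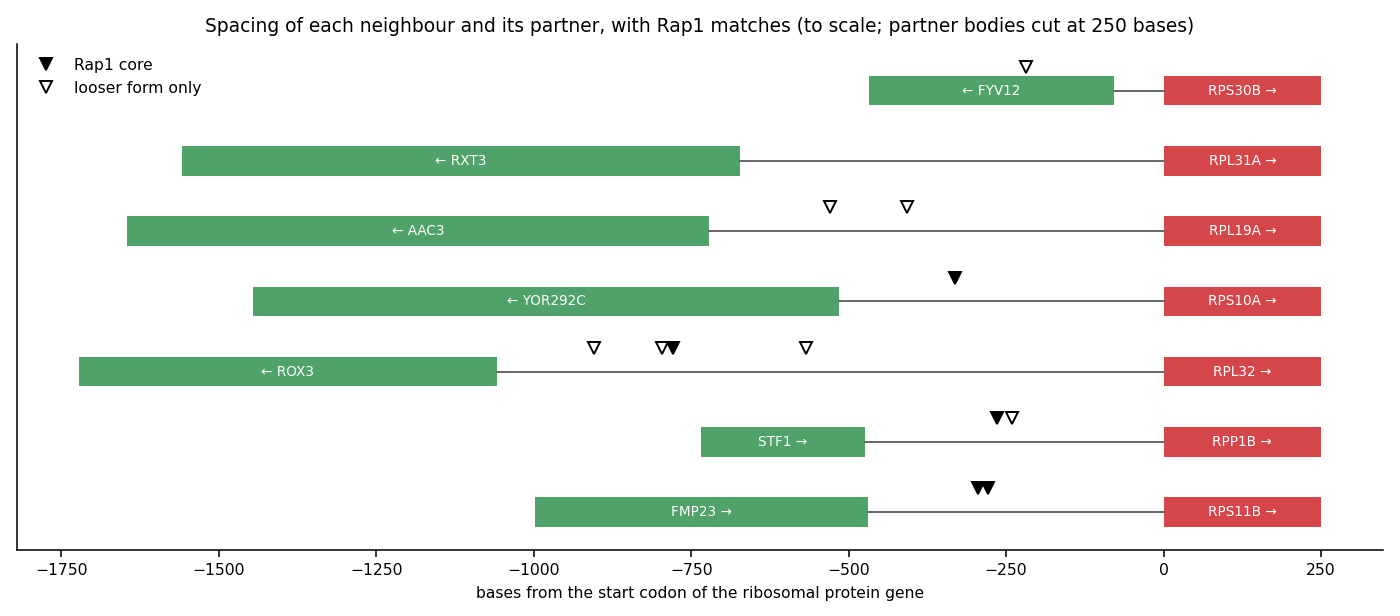
Positions of each neighbour (green), its ribosomal partner (red) and the Rap1 matches (filled, core; open, looser form only), drawn to scale in bases from the partner's start codon. The gaps run from 78 bases (FYV12) to 1059 bases (ROX3), and the FYV12 match lies within the neighbour's own reading frame.

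Per length, the 7 neighbours spanned a wide range of levels in WT and all lay below their partners. Mean WT levels in TPM (the authors' unit, which corrects for the length of a transcript and the size of a library) were 188 ± 16.3 (SD, n = 3) for ROX3, 47.1 ± 2.11 for RXT3, 37.4 ± 4.60 for STF1, 16.1 ± 1.46 for YOR292C, 5.72 ± 1.04 for AAC3 and 3.47 ± 0.537 for FMP23, while FYV12 was at 0 or 0.24. The partners had mean levels between 336 ± 27.6 (RPS11B) and 1155 ± 203 (RPS30B) TPM. Total counts were 18289832 to 23182315 per library, and replicates correlated with r of 0.985 to 0.994 over log2 values. Loss of a degron protein is not read from its RNA: STH1 stood at 1114 to 1226 CPM (counts scaled to library size) in the STH1-AID control and at 2102 to 2445 after IAA, and RAP1 at 538 to 636 and 615 to 795 in RAP1-AID cells. No spike-in was used for these libraries, so every value is relative to the other RNA of its library.

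FYV12, a small open reading frame of unknown function, was close to silent unless Rap1 had been depleted. It had 27, 35 and 27 counts in the 3 RAP1-AID IAA libraries and 29, 26 and 28 counts in the 3 RAP1-AID/STH1-AID IAA libraries. In the other 15 libraries no count was above 1: the RAP1-AID control had 0, 0 and 0, the double-degron control 1, 1 and 0, WT 1, 0 and 0, the STH1-AID control 1, 0 and 0, and the STH1-AID IAA libraries 0, 0 and 0. On Rap1 depletion its level was thus at least 9.17-fold higher, taking 3 counts per library as the floor. On co-depletion the summed counts were 83 against 2, a ratio of 50.2 after scaling (exact 95% interval for counting error, 13.5 to 422). This ratio was taken without the floor, under which its control also lay, so it cannot be set against the 9.17-fold bound. The interval leaves out the spread between libraries, and since these counts helped to choose FYV12 it is not a test of the rise. No fold is given for Sth1 depletion, where both groups lay under the floor. Even after Rap1 depletion its TPM was 0.0113 ± 0.000720 (SD, n = 3) of that of RPS30B.

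RXT3, a subunit of the Rpd3L histone deacetylase complex, was highest after depletion of Rap1 alone. Its level was 182, 222 and 230.4 CPM in RAP1-AID IAA libraries against 45.6, 50.1 and 46.5 CPM with DMSO. After Sth1 depletion it was 91.3, 91.6 and 92.5 CPM against 54.8, 61.1 and 55.8 CPM, and after co-depletion 80.3, 80.0 and 81.0 CPM against 47.4, 53.6 and 44.7 CPM. The IAA libraries lay above their DMSO libraries in all 3 strains, and the RAP1-AID IAA libraries lay above those of every other condition. The fitted log2 changes were 2.16 (SE 0.09) on Rap1 depletion, 0.68 (SE 0.09) on Sth1 depletion and 0.73 (SE 0.09) on co-depletion. WT, at 41.2, 38.2 and 35.0 CPM, was the lowest of the 7 conditions, and the RAP1-AID and double-degron controls overlapped each other.

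AAC3 encodes an ADP/ATP carrier of the mitochondrial inner membrane that is known for its expression without oxygen. It was low in WT, at 5.53, 3.83 and 5.35 CPM, and in CPM reached similar levels in the 3 IAA conditions. These were 27.5, 23.3 and 20.2 CPM for Sth1, 30.1, 28.1 and 28.4 CPM for Rap1 and 29.8, 29.4 and 29.0 CPM for the co-depletion, of which the last pair overlapped. The controls differed more, at 12.5, 9.29 and 8.49 CPM (STH1-AID), 19.1, 17.4 and 14.4 CPM (RAP1-AID) and 12.8, 10.7 and 11.8 CPM (double degron). The fitted log2 changes were 1.23 (SE 0.15), 0.77 (SE 0.15) and 1.32 (SE 0.15) on Sth1 depletion, Rap1 depletion and co-depletion. With this scaling the smallest change went with the highest control. In TPM the 3 IAA conditions did not overlap, with means of 44.8 after Rap1 depletion, 33.5 after co-depletion and 25.1 after Sth1 depletion. The likeness of the 3 levels thus depends on the scaling.

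YOR292C, an uncharacterised open reading frame, was like RXT3 highest after depletion of Rap1 alone. It stood at 85.2, 98.1 and 77.6 CPM there against 28.7, 28.1 and 24.8 CPM with DMSO. The co-depleted libraries had 58.2, 68.1 and 60.5 CPM against 29.6, 34.4 and 32.9 CPM, and the Sth1-depleted ones 30.9, 41.0 and 28.5 CPM against 13.4, 20.7 and 20.8 CPM. The log2 changes were 1.68, 0.95 and 0.87 (SE 0.15 in each). Each IAA group lay above its own control, but the Sth1-depleted libraries overlapped the double-degron control, and the STH1-AID control overlapped WT (13.5, 15.1 and 13.1 CPM).

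ROX3, a subunit of the Mediator complex that links regulators to RNA polymerase II, was unlike RXT3 highest after Sth1 depletion. It stood at 331, 347 and 342 CPM there against 134, 132 and 110.0 CPM with DMSO, a log2 change of 1.44 (SE 0.08). After Rap1 depletion it was 188, 202 and 206 CPM against 137, 130.1 and 139 CPM (0.55, SE 0.08), and after co-depletion 217, 235 and 216 CPM against 147, 164 and 143 CPM (0.56, SE 0.08). The Sth1-depleted libraries lay above those of every other condition, co-depletion included. WT had 97.5, 112 and 96.6 CPM and overlapped the STH1-AID control.

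STF1, which encodes a small inhibitor of the mitochondrial ATP synthase, had a fitted change of more than 4-fold in each of the 3 depletions. Its levels were 18.1, 23.8 and 21.3 CPM after Sth1 depletion against 4.14, 4.87 and 3.70 CPM, and 11.0, 11.6 and 12.6 CPM after Rap1 depletion against 2.22, 2.08 and 2.05 CPM. The co-depleted libraries had 11.0, 17.8 and 11.8 CPM against 1.03, 1.30 and 1.26 CPM, the lowest of the 7 conditions. The log2 changes were 2.31 (SE 0.17), 2.47 (SE 0.18) and 3.49 (SE 0.20). The co-depletion had the largest change and not the highest level: its libraries lay below the Sth1-depleted ones and overlapped the Rap1-depleted ones.

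FMP23, a mitochondrial protein of little-known function, was highest after co-depletion. Its levels there were 7.69, 6.91 and 7.47 CPM against 1.69, 0.952 and 1.97 CPM, a log2 change of 2.25 (SE 0.25). After Sth1 depletion it had 5.22, 4.80 and 4.66 CPM against 4.48, 3.96 and 3.03 CPM (0.36, SE 0.23), and after Rap1 depletion 2.77, 3.24 and 2.22 CPM against 1.89, 3.14 and 1.88 CPM (0.26, SE 0.24). The Rap1-depleted and control libraries overlapped. These levels rest on 19 to 138 counts per library, the fewest after FYV12.

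**Figure D2:**
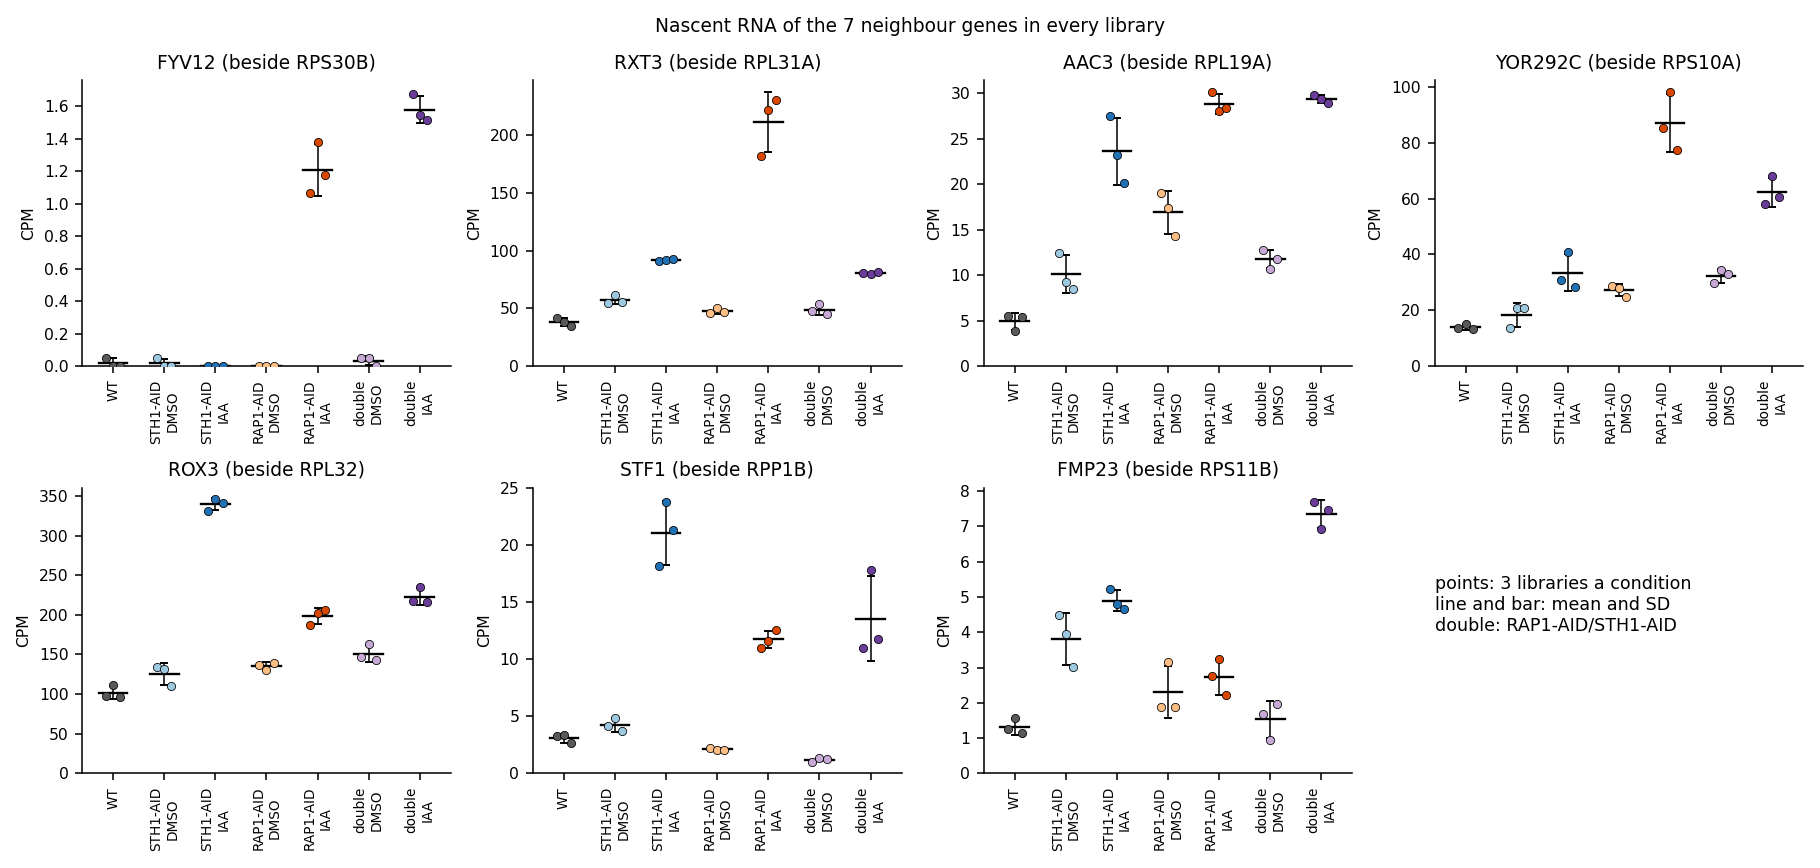
CPM of each neighbour in the 21 libraries (points), with the mean and SD of the 3 libraries of each condition. RXT3 and YOR292C peak after Rap1 depletion, ROX3 and STF1 after Sth1 depletion and FMP23 after co-depletion, while AAC3 lies between 20.2 and 30.1 CPM in all 3 depletions. FYV12 is high after both Rap1 depletion and co-depletion, with means of 1.21 and 1.58 CPM. In TPM these 2 groups overlap, with means of 6.74 and 6.50, so their order depends on the scaling.

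The 3 IAA libraries lay above the 3 DMSO libraries in 19 of the 21 combinations of neighbour and depletion, all but FYV12 on Sth1 depletion and FMP23 on Rap1 depletion. This was so for 6, 6 and 7 of the 7 genes on Sth1 depletion, Rap1 depletion and co-depletion, against 36.5%, 21.8% and 31.7% of all 5742 protein-coding genes kept. Of the 6 neighbours with a fitted fold, 3 had an adjusted p below 0.05 and a log2 fold change above 1 on Sth1 depletion (AAC3, ROX3 and STF1), 3 on Rap1 depletion (RXT3, YOR292C and STF1) and 3 on co-depletion (AAC3, STF1 and FMP23). The same rule took 10.5%, 1.57% and 7.07% of all genes. Because these changes chose the 7 genes, an adjusted p on them is not a test of a rise. The calls only describe the 7 genes, and nothing is read from them or from the shares. The values nearest the limit were 1.23 for AAC3 on Sth1 depletion, just inside, and 0.95 for YOR292C on co-depletion, just outside.

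The ribosomal partners moved the other way when Rap1 was lost. All 7 fell on Rap1 depletion, by log2 changes from -0.59 (SE 0.15, adjusted p = 0.00559) for RPL32 to -1.90 (SE 0.14, adjusted p = 3.38e-09) for RPL31A, against 13.3% of all genes that fell. RPL31A, a protein of the large subunit, had 27.1, 30.0 and 29.8 CPM after Rap1 depletion against 96.4, 138 and 89.3 CPM with DMSO, and RPS10A, of the small subunit, had 30.1, 41.4 and 42.1 CPM against 76.0, 130.5 and 76.5 CPM. These groups did not overlap for any of the 7 partners. Of all 137 ribosomal protein genes, 126 fell and 2 rose, so a lower partner was the common case and not particular to these loci.

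On co-depletion all 7 partners again fell, by smaller fitted log2 changes, from -0.35 (SE 0.15, adjusted p = 0.044) for RPL32 to -0.94 (SE 0.14, adjusted p = 9.79e-06) for RPL31A, against 37.5% of all genes. RPS30B did so at the limit (-0.41, SE 0.18, adjusted p = 0.0463), with overlapping libraries. The calls of RPS30B and RPL32 were lost with DESeq2 size factors (adjusted p = 0.0788 and 0.087), in DESeq2 itself (0.0684 and 0.0791) and with a mean of at least 10 counts required (0.0527 and 0.051). Only 4 partners were called without RAP1-AID/STH1-AID DMSO replicate 1, IAA replicate 1 or IAA replicate 3. On Sth1 depletion 1 of the 7 fell, RPL19A (-0.34, SE 0.13, adjusted p = 0.0256), against 40.9% of all genes, and that call was lost with DESeq2 size factors (adjusted p = 0.0551) and without STH1-AID DMSO replicate 1, IAA replicate 2 or IAA replicate 3 (0 of 7 called). The difference between Rap1 and Sth1 depletion was itself significant for 6 partners, with log2 differences from -0.91 to -1.76, and not for RPL32 (-0.43, SE 0.21, adjusted p = 0.0727). Expected counts were fractional in 20 of 21 libraries for RPS30B, in all 21 for RPL19A and RPS11B and in 1 each for RPL31A and RPS10A, as they can be where reads are divided between similar genes, so these partners are less certain. Every count of the 7 neighbours, and of RPL32 and RPP1B, was whole within 1e-09.

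**Figure D3:**
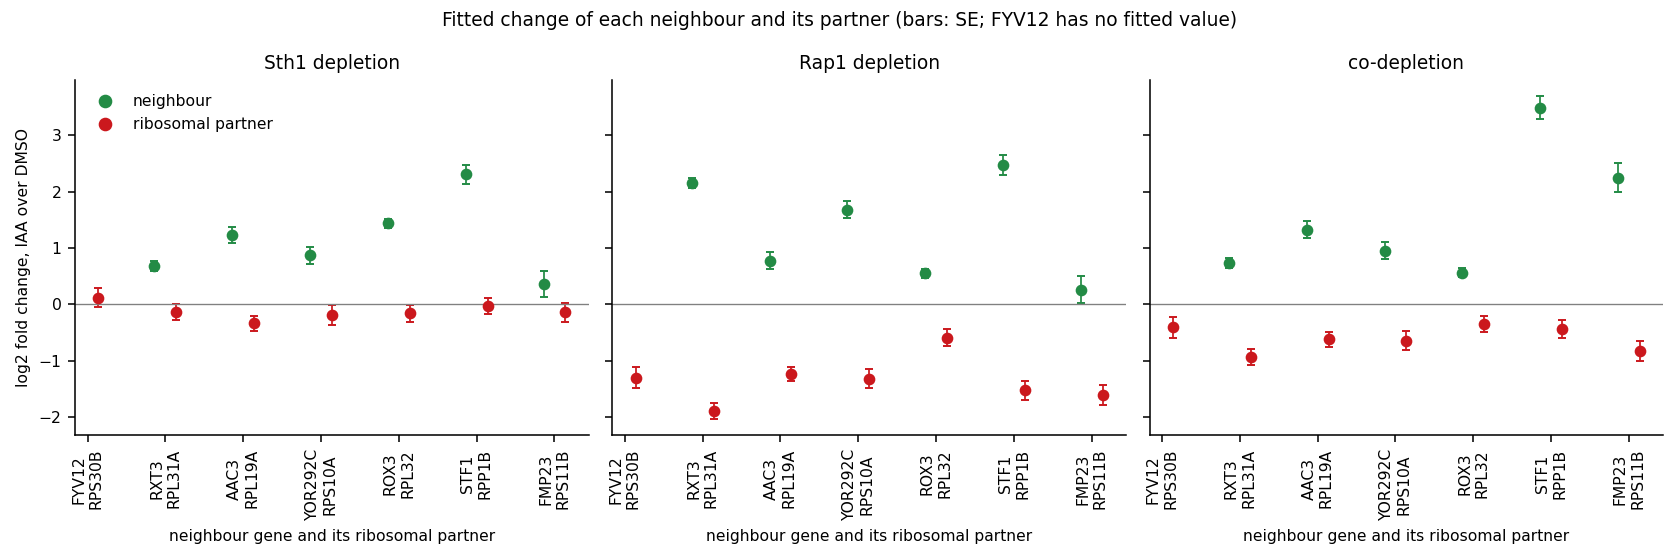
Fitted log2 fold change (IAA over DMSO, bars SE) of each neighbour and its ribosomal partner in the 3 depletions, where FYV12 has no fitted value. All 7 partners lie below 0 on Rap1 depletion and on co-depletion, while the 6 neighbours plotted lie above 0 in each panel.

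The balance within a pair can be read from the TPM of the neighbour over that of its partner. RXT3 was at 0.101 ± 0.0205 (SD, n = 3) of RPL31A in the RAP1-AID control and at 1.65 ± 0.132 after Rap1 depletion, above its partner in all 3 libraries. STF1 went from 0.0706 ± 0.0151 to 1.09 ± 0.0592 of RPP1B on Rap1 depletion and from 0.144 ± 0.0283 to 0.749 ± 0.191 on Sth1 depletion. ROX3 went from 0.359 ± 0.0575 to 1.08 ± 0.120 of RPL32 on Sth1 depletion, with 1 library still below 1. YOR292C reached 0.427 ± 0.0905 of RPS10A after Rap1 depletion, and AAC3 and FMP23 stayed at or below 0.133 of their partners in every library. A count per gene does not show where a transcript started, so a longer transcript that runs into the neighbour and one that starts at it give the same value.

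**Figure D4:**
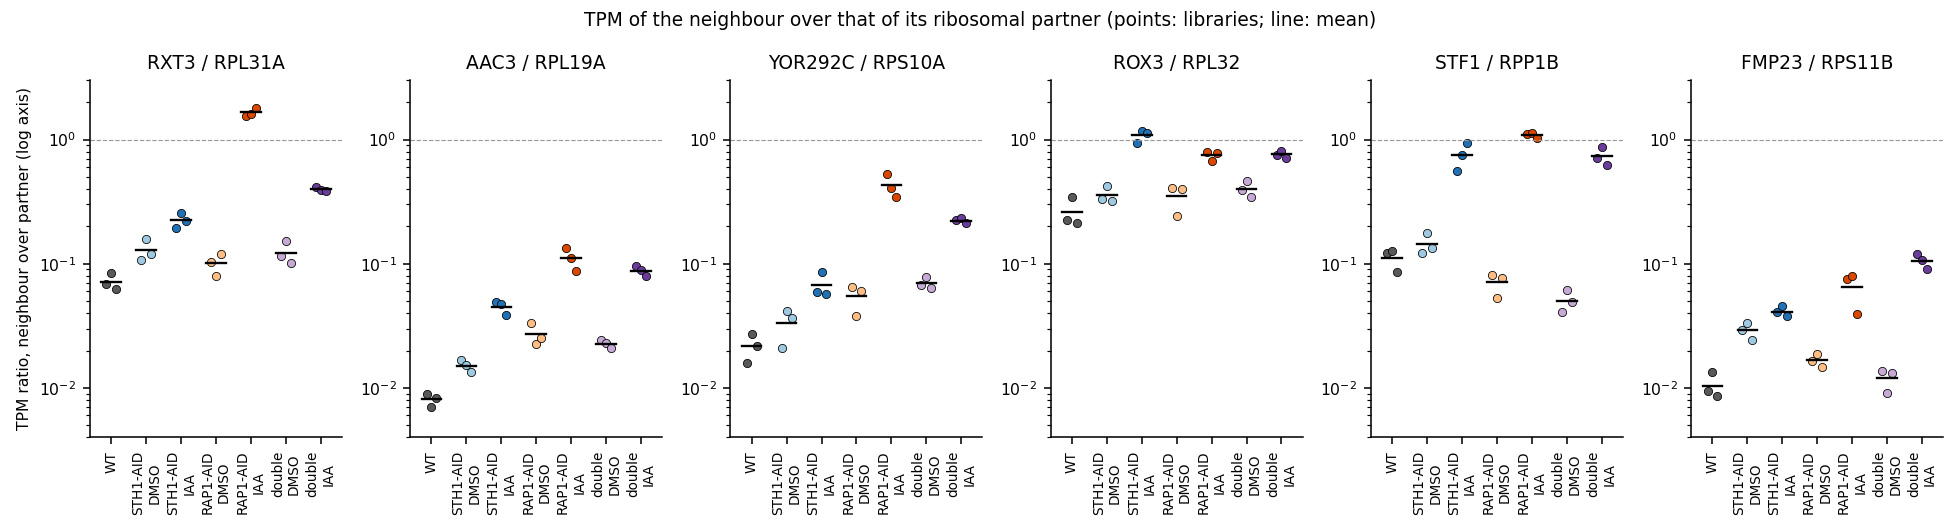
TPM of 6 neighbours divided by the TPM of their ribosomal partners, on a log axis, for each library (points) and the mean of each condition (line), without FYV12, which is at 0 in 11 libraries. The dashed line marks a ratio of 1, which RXT3 and STF1 pass in all 3 Rap1-depleted libraries and ROX3 in 2 of 3 Sth1-depleted libraries.

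The neighbours already differed from WT in the DMSO controls, a comparison that did not choose them but shares its DMSO libraries with the depletions, so that a low control lowers this difference and raises the change on depletion. In the STH1-AID control 4 of 7 rose, against 18.5% of all genes. YOR292C (0.40, adjusted p = 0.0519) missed the limit there and passed it with DESeq2 size factors (adjusted p = 0.0422), in DESeq2 (0.0294) and with scaling by total library size (0.0284). FMP23 rose most (1.51, SE 0.26, adjusted p = 0.000149), followed by AAC3 (1.04, SE 0.17, adjusted p = 7.46e-05), RXT3 (0.59, SE 0.09) and ROX3 (0.30, SE 0.08), and 0 fell, also at an unadjusted p below 0.05 and by DESeq2, against 19.4% of all genes. In the RAP1-AID control 5 rose, against 22.7% of all genes: AAC3 (1.79, SE 0.16, adjusted p = 6.15e-08), YOR292C (0.97, SE 0.15, adjusted p = 4.83e-05), FMP23 (0.78, SE 0.27), ROX3 (0.41, SE 0.08) and RXT3 (0.31, SE 0.09). STF1 fell there (-0.54, SE 0.20, adjusted p = 0.033), against 22.1% of all genes.

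In the double-degron control 4 rose, against 16.3% of all genes, namely AAC3 (1.27, SE 0.17, adjusted p = 9.84e-06), YOR292C (1.21, SE 0.15), ROX3 (0.57, SE 0.08) and RXT3 (0.35, SE 0.09). STF1 fell by 1.36 (SE 0.22, adjusted p = 7.86e-05), against 17% of all genes. RXT3, AAC3 and ROX3 thus rose in each of the 3 controls, while STF1 had a log2 difference of 0.46 (SE 0.19, adjusted p = 0.0599) in the STH1-AID control and fell in the other 2. The fall of STF1 in the RAP1-AID control was lost without any 1 of the 3 RAP1-AID DMSO libraries or without WT replicate 1 or 2 (adjusted p of 0.0598 to 0.113), with scaling by total library size (0.178) and with only the compared libraries fitted (0.0691), and the rise of FMP23 there was lost without RAP1-AID DMSO replicate 2 or WT replicate 1 or 3 (0.0625 to 0.159). FYV12 stayed at 0 or 1 count in WT and in all controls. None of the 7 partners passed the test in any control by edgeR or DESeq2 (at an unadjusted p below 0.05, 0 in the STH1-AID and RAP1-AID controls and 2 in the double-degron control), with log2 differences from -0.42 to 0.25.

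The genes on the far side of the pairs moved in both directions. Of the 7 genes beyond the neighbours, 3, 1 and 3 rose and 4, 4 and 3 fell on Sth1 depletion, Rap1 depletion and co-depletion, beside 35.9%, 12.8% and 32.2% of all genes that rose and 40.9%, 13.3% and 37.5% that fell. SER1, a serine synthesis gene that starts 95 bases after FYV12 on the same strand, rose on Sth1 depletion (1.37, SE 0.14, adjusted p = 3.46e-08), where FYV12 was at 0 counts, and on co-depletion (0.35, SE 0.14, adjusted p = 0.0295, with overlapping libraries), where FYV12 was high. SER1 fell on Rap1 depletion (-0.59, SE 0.14, adjusted p = 0.00377), where FYV12 was high as well. YPK9, a vacuolar ATPase gene that ends 59 bases from YOR292C on the other strand, fell on Sth1 depletion (-1.14, SE 0.10) and on co-depletion (-1.27, SE 0.10), with adjusted p of 4.62e-09 and 3.74e-09. LYS21, a lysine synthesis gene before STF1, fell on Sth1 depletion (-1.09, SE 0.09, adjusted p = 3.03e-09). YBR085C-A, on the other strand 2000 bases past AAC3, rose on Rap1 depletion (1.40, SE 0.26, adjusted p = 0.000396) and was lower than in WT in all 3 controls, the reverse of AAC3. Among the 6 genes kept beyond the partners, no change passed a log2 of 1, and they ranged from -0.66 (SCS22 on Sth1 depletion) to 0.59 (SCS22 on Rap1 depletion).

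Other neighbours of ribosomal protein genes moved as well. By the rule above, 7, 6 and 6 of the 59 head-to-head neighbours not described here were higher on Sth1 depletion, Rap1 depletion and co-depletion (11.9%, 10.2% and 10.2%, beside the shares of all genes given above), and 5, 2 and 2 were more than 2-fold lower (8.47%, 3.39% and 3.39%, beside 15.9%, 3.19% and 5.73% of all genes). Their median log2 changes were 0.28, 0.07 and 0.17, beside -0.06, 0.01 and -0.05 for all genes. The 5 described here were selected for rising, and FYV12, for which no fitted fold is used, was called on Rap1 depletion and co-depletion. With them included, 9, 9 and 8 of 64 were higher, and nothing is read from that count. Scaling by total library size gave 3 of 64 on Sth1 depletion and 5 of 64 on co-depletion, beside 375 and 275 of all 5742 genes. Leaving out 1 library gave 6 to 9 on Rap1 depletion. With the replicate block, which the pairing of the Rap1 libraries calls for, 8 were higher on Rap1 depletion, beside 95 of all 5742 genes.

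Of the 48 tandem upstream neighbours other than STF1 and FMP23, 7, 0 and 5 were higher (14.6%, 0% and 10.4%) and 13, 3 and 4 were more than 2-fold lower (27.1%, 6.25% and 8.33%), with median log2 changes of -0.20, -0.08 and 0.01. The 0 on Rap1 depletion by edgeR, beside 1.57% of all genes, was also 0 at an unadjusted p below 0.05 and by DESeq2. With no limit on the fold 6 of the 48 rose there, beside 12.8% of all genes. Beside shares this small or alike, nothing is read from the 0 or the 6. The head-to-head pairs with a higher neighbour include those selected here. Among them the partner fell in 3 of 9 on Sth1 depletion, 9 of 9 on Rap1 depletion and 7 of 8 on co-depletion. Over all 64 pairs the partner fell in 11, 60 and 51. On Rap1 depletion and co-depletion a lower partner was thus common with or without a higher neighbour.

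Across the 3 depletions, with FYV12 left out, 18 of 63 head-to-head neighbours were higher at least once and 5 at least in 2. The share of all genes higher that often was not counted, so nothing is read from these numbers. Among the 18 and the 5 were 4 and 1 of the genes selected for rising, the 1 being AAC3. The other 4 of the 5 were ATG27, beside RPL17B, in all 3 depletions (1.21, 1.01 and 1.09), PLM2 and YJR146W on Sth1 depletion and co-depletion, and YLR326W on Rap1 depletion and co-depletion. Of 50 tandem neighbours, those higher in at least 2 were STF1, RRT5, GAS2, MCH4 and SPS4, the last 4 on Sth1 depletion and co-depletion. STF1, which was selected for rising, and ATG27 were thus the only upstream neighbours higher in all 3 by this rule.

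**Figure D5:**
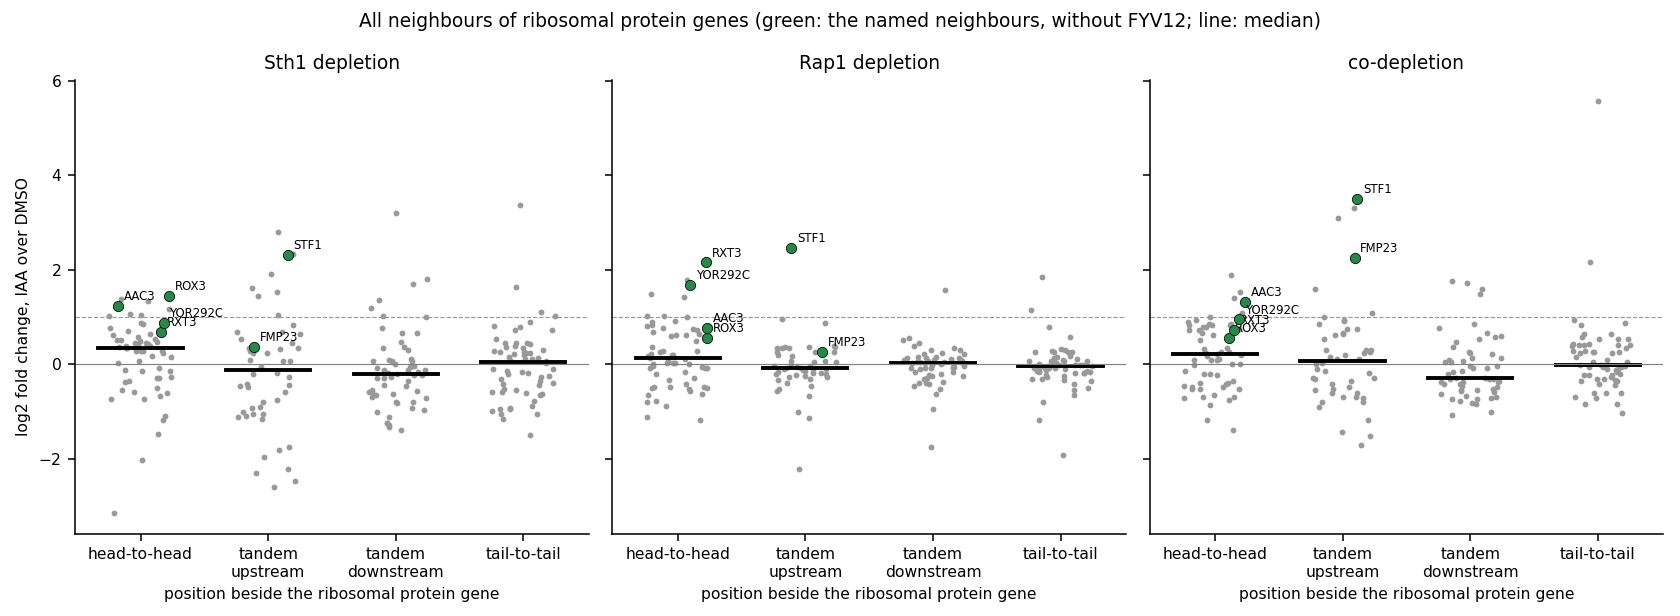
Fitted log2 fold change (IAA over DMSO) of every neighbour of a ribosomal protein gene by position and strand, with medians as lines, the described neighbours in green and FYV12 left out of points and medians. RXT3 (2.16) and YOR292C (1.68) lie in the upper part of the head-to-head genes on Rap1 depletion, and STF1 (2.47) is the only tandem upstream neighbour above the dashed line at 1.

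The relatives and complex partners of these genes followed them in part. Of the other ADP/ATP carriers, AAC1 rose on Sth1 depletion (0.93, SE 0.11, adjusted p = 1.86e-07) and co-depletion (0.94, SE 0.11, adjusted p = 3.11e-07), as AAC3 was higher there, but had a log2 change of -0.23 (SE 0.11, adjusted p = 0.117) on Rap1 depletion. PET9, the main carrier of aerobic cells, changed by -0.18 to -0.06 with no adjusted p under 0.118. INH1, the other ATP synthase inhibitor, rose on co-depletion (0.94, SE 0.25, adjusted p = 0.00274) and had log2 changes of 0.49 (SE 0.27, adjusted p = 0.101) on Sth1 depletion and 0.66 (SE 0.25, adjusted p = 0.0619) on Rap1 depletion. STF2, named with STF1 as an ATP synthase stabilising factor, rose on Rap1 depletion (2.01, SE 0.36, adjusted p = 0.000343) at 22.9, 13.2 and 31.4 CPM against 5.66, 6.66 and 4.37 CPM. Its log2 change was -0.38 (SE 0.38, adjusted p = 0.377) on Sth1 depletion and 0.50 (SE 0.37, adjusted p = 0.24) on co-depletion, both with overlapping libraries, where STF1 was higher.

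Of the 11 other Rpd3L genes, 0 passed edgeR's test on Rap1 depletion (3 at an unadjusted p below 0.05, 1 by DESeq2), where RXT3 had its largest change, and 5 rose and 4 fell on Sth1 depletion, beside 35.9% and 40.9% of all genes. UME6, the DNA-binding repressor of early meiotic genes, rose on Sth1 depletion (1.37, SE 0.12, adjusted p = 5.47e-09) and on co-depletion (1.40, SE 0.12, adjusted p = 1.26e-08). Of the 24 other Mediator genes, 17 fell and 2 rose on Sth1 depletion, beside 40.9% and 35.9% of all genes, with a median log2 change of -0.77 against -0.06 for all genes. More than 2-fold lower were 9 of them, beside 15.9% of all genes, among them SRB7 (-1.73, SE 0.15) and MED4 (-1.46, SE 0.10). ROX3 was higher there. On Rap1 depletion 2 of the 24 rose and 0 fell (2 at an unadjusted p below 0.05, 0 by DESeq2), and on co-depletion 1 rose and 16 fell, beside 32.2% and 37.5% of all genes.

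Correlations over the 21 libraries are a description, since the genes were selected on these libraries for rising after IAA, which sets the sign that they share. Without FYV12, whose profile rests on 6 libraries above 1 count, Pearson's r between log2 CPM of 2 neighbours ran from 0.42 (RXT3 and FMP23) to 0.85 (AAC3 and YOR292C), with points that share strains, treatment and libraries. Against its own partner, r was -0.89 for YOR292C, -0.85 for RXT3, -0.63 for AAC3, -0.55 for ROX3, -0.40 for STF1 and -0.26 for FMP23. On Rap1 depletion 126 of all 137 ribosomal protein genes fell. Because r with ribosomal protein genes other than the partner was not computed, these values are not read as particular to a pair. The genes whose log2 CPM over the 21 libraries were most like the mean profile of the 7, FYV12 included, were YJR115W (r = 0.951), LOH1 (r = 0.938), CDC42 (r = 0.937), EMP24 (r = 0.931) and ATG27 (r = 0.928), and of these ATG27 alone is a neighbour of a ribosomal protein gene.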

How the data were processed

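Nascent RNA-seq of 21 libraries was analysed from 1 table. The authors trimmed reads with cutadapt 1.9.1 and deposited expected counts and TPM per gene from RSEM 1.3.0 with STAR 2.5.2a, counted by strand on R64 gene models. The deposited table has 7126 features. Expected counts were rounded and fitted with edgeR 4.0.16 (R 4.3.3) in a quasi-likelihood model with TMM scaling (factors 0.856 to 1.223) and a term for each of the 7 conditions (14 degrees of freedom left). Of 6164 features kept by filterByExpr, 5742 were protein-coding, and p-values were adjusted over these by Benjamini-Hochberg. "Rose" and "fell" mean an adjusted p below 0.05. CPM were computed from TMM-scaled totals, and TPM were used to compare genes and, for FYV12 and AAC3, as a second scaling beside CPM. DESeq2 1.42.0 was an alternative, with other scalings, filters, limits and single libraries left out. Intervals and floors cover counting error only.

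The 7 genes, the gene lists and the tests were chosen with earlier results of these data known. Named genes were the 7 neighbours, their partners and the next gene on each side, upstream neighbours higher in at least 2 depletions, relatives of AAC3 and STF1, Rpd3L and Mediator genes past an adjusted p of 0.05 and a log2 change of 1, and the 5 genes with the most similar profile. LAS17, VAM6, BRE1, MIS1, MRX3, YDL129W, ZTA1 and REB1 belong to the flanking genes and are covered by counts. YOR293C-A did not pass the filter. Replicates are biological by the labels. For Rap1 depletion, deviations of same-numbered libraries correlated at 0.2, 0.474 and 0.236, so their numbers were taken to pair them there. The main fit has no block, and the block changed no call of a partner on Rap1 depletion. Sequences and coordinates are from the RefSeq R64 genome.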

Additional observations from a re-analysis of the deposited data

Results flagged for a closer look

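These results differ between strains or depletions by a test of the difference itself, adjusted over all protein-coding genes, and no cause was tested. The tests were edgeR interaction terms for the partners and edgeR contrasts between DMSO controls for the neighbours. The log2 change of the partner on Rap1 depletion minus that on Sth1 depletion was -1.76 for RPL31A (adjusted p = 2.59e-07), -1.50 for RPP1B (6.88e-06), -1.47 for RPS11B (1.97e-05), -1.42 for RPS30B (5.48e-05), -1.12 for RPS10A (0.000421) and -0.91 for RPL19A (0.000269). The change on co-depletion minus that on Rap1 depletion was 1.11 for RPP1B (adjusted p = 0.000368), 0.96 for RPL31A (0.000516), 0.89 for RPS30B (0.00578), 0.78 for RPS11B (0.00876), 0.66 for RPS10A (0.0266) and 0.63 for RPL19A (0.00787). With TMM scaling the same 6 partners thus fell less in the double-degron strain. In TPM the means after Rap1 depletion and co-depletion were 320 and 316 for RPS10A, from 710 and 601 in the controls. For RPL19A they were 414 and 384, from 866 and 682. For RPS30B, RPL31A, RPP1B and RPS11B the mean TPM was higher after co-depletion. These differences were not refitted with scaling by total library size. Co-depletion minus Sth1 depletion gave -0.81 for RPL31A (adjusted p = 0.00441) and -0.69 for RPS11B (0.0331).

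Among the neighbours, the differences are between DMSO controls. These DMSO libraries are also the baselines of the changes that chose the genes, so a low control favoured the choice of a gene. The adjusted p-values between controls are therefore not independent of that choice and only describe these genes. The share of all genes that differ between controls is not given, so these differences are not read as particular to the neighbours. STF1 was lower in the RAP1-AID control than in the STH1-AID control (-1.0, adjusted p = 0.000463), lower again in the double-degron control than in the RAP1-AID control (-0.82, adjusted p = 0.0146) and by -1.82 against the STH1-AID control (adjusted p = 3.6e-06). FMP23 was lower than in the STH1-AID control in the RAP1-AID control (-0.73, adjusted p = 0.0232) and the double-degron control (-1.30, adjusted p = 0.000693). AAC3 was higher in the RAP1-AID control than in the STH1-AID control (0.75, adjusted p = 0.000827) and lower in the double-degron control than in the RAP1-AID control (-0.52, adjusted p = 0.022). YOR292C was higher than in the STH1-AID control in both Rap1-tagged controls (0.57, adjusted p = 0.00643, and 0.82, adjusted p = 0.000473). ROX3 was higher in the double-degron control than in the STH1-AID control (0.27, adjusted p = 0.0173), and RXT3 was lower in the RAP1-AID control than in the STH1-AID control (-0.27, adjusted p = 0.0226).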

How the results depend on the processing

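The 6 neighbours with a fitted change kept its direction in each depletion under every alternative tried. Scaling by total library size alone moved the median of all genes from -0.06 to -0.31 on Sth1 depletion, from 0.01 to 0.13 on Rap1 depletion and from -0.05 to -0.26 on co-depletion. With it 5 of 7 partners were lower on Sth1 depletion in place of 1, RPS30B turned to -0.12 there, 3 and 5 head-to-head neighbours were higher on Sth1 depletion and co-depletion, and 2 tandem upstream neighbours on Rap1 depletion. With DESeq2 size factors 0 partners were lower on Sth1 depletion, and RPP1B stood at 0.01, as it did in DESeq2. At an adjusted p of at most 0.01, 0 partners were lower on Sth1 depletion and 4 on co-depletion. With no limit on the fold change 34, 26 and 32 of 64 head-to-head and 19, 7 and 19 of 50 tandem upstream neighbours were higher. These are for Sth1 depletion, Rap1 depletion and co-depletion, beside 35.9%, 12.8% and 32.2% of all genes. The selected genes are included in the counts of neighbours in this section, so nothing is read from them. Leaving out 1 library gave 0 to 1 partners lower on Sth1 depletion, 4 to 6 on co-depletion and 1 to 2 tandem upstream neighbours higher on Rap1 depletion (2 without RAP1-AID DMSO replicate 2 or IAA replicate 3), with RPP1B on Sth1 depletion between -0.13 and 0.09 (above 0 without STH1-AID DMSO replicate 1 or IAA replicate 3). FMP23 in the double-degron control against WT ranged from -0.01 to 0.45, the first without RAP1-AID/STH1-AID DMSO replicate 3. With the replicate block 6 of the 7 genes were above WT in the STH1-AID control in place of 4 (YOR292C, adjusted p = 0.0184, and STF1, adjusted p = 0.0286) and 6 partners were lower on co-depletion in place of 7 (RPL32, adjusted p = 0.0542). Outside Rap1 depletion the numbers were not taken to pair libraries, although each library correlated best with its own number in all 9 depletion pairs. Depth limits FYV12, at 0 or 1 count in 15 libraries.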
